A study of Saccharomyces cerevisiae with 8 samples.

Results

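Ribosome biogenesis factors are the proteins that build ribosomal subunits without staying in them, and 60 of their genes were followed here, out of 6713 open reading frames measured in each library. They were chosen by systematic name as NOP, UTP, RRP, NOC, RPF, NOG and IMP genes and related nucleolar factors, box H/ACA proteins and assembly helicases. No threshold on a measured value entered the choice, but it was made with earlier results of these data known. The series measured RNA of 8 budding yeast cultures (Saccharomyces cerevisiae, strain background BY4741, a laboratory haploid) in 4 groups of 2 biological replicates. Inductant 1 and inductant 2 were wild type by genotype and, according to the labels, came from independent transient overexpressions of VTS1: the gene was overexpressed from a plasmid for 48 h, the plasmid was removed, and the cells were passaged for several generations. Their state is named [SMAUG+]. The vts1 deletion group lacked VTS1 and was untreated. The naive group was wild type and untreated. Each culture of 50 ml was harvested at an OD600 of about 0.6, in mid-exponential growth, and its total RNA was depleted of rRNA. The replicates of a group are cultures, and each inductant group is 1 induction, so p-values measure the spread between cultures and not that between inductions or strains. The question of the design was how the induced state and the loss of VTS1 differ from naive cells.

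Ribosome synthesis starts in the nucleolus, where RNA polymerase I makes a long precursor rRNA. Small nucleolar ribonucleoproteins modify it, the small subunit processome folds and cleaves it around the U3 snoRNA, and large subunit factors, helicases and GTPases carry the large subunit precursors to a mature subunit. In growing yeast these genes are known to be transcribed together, under the nutrient-controlled Sch9 and TOR pathways, through the promoter elements PAC and RRPE. Vts1 is the yeast member of the Smaug family, which recognises hairpins in RNA and promotes decay of the transcripts it binds.

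The PAC and RRPE elements are what these promoters share outside the rule by which the genes were picked. PAC was searched as GATGAG and RRPE as AAAAATTT, on both strands, in the 300 bases from 250 before to 50 after each coding start of the R64 genome, with the RefSeq annotation. PAC was found at 57 of the 60 genes (95%), against 1175 of 5902 windows of the same length over all annotated nuclear genes (19.9%). RRPE was found at 52 of 60 (86.7%), against 849 of 5902 (14.4%), and both at 50 of 60 (83.3%), against 338 of 5902 (5.73%). The longer form GCGATGAG was at 38 of 60 (63.3%) against 4.00% of all windows, and GAAAAATTT at 36 of 60 (60%) against 6.18%. Further factors of the pathway, outside the 60, held the elements nearly as often. PAC was at 93.2% and RRPE at 79.5% of 44 other small subunit factors. Among 53 genes listed as other large subunit factors, PAC was at 88.7% and RRPE at 81.1%. Of 16 genes of RNA polymerase I and its factors, 75.0% held PAC and 37.5% RRPE. Ribosomal protein genes, by contrast, held PAC in 11.4% and RRPE in 12.1% of 132 windows. Matches of PAC can overlap each other, and a longer run of the RRPE letters counts on both strands.

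The 6 promoter stretches show how the elements sit in genes with different readings in the deletion. Each runs from 200 to 51 bases before the start codon, in R64 coordinates, and capitals mark every PAC or RRPE match on either strand. NOP7, KRR1 and HAS1 were lower in the deletion, UTP9 and UTP22 higher, and UTP18 was higher in both inductants and in the deletion.
NOP7, chrVII:695217-695366, plus strand: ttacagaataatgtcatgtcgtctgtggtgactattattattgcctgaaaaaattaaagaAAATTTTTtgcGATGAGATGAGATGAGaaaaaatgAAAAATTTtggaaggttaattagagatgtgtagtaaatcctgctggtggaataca
KRR1, chrIII:23430-23579, minus strand: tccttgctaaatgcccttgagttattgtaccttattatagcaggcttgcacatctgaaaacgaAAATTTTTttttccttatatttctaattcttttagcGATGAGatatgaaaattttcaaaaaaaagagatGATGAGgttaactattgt
HAS1, chrXIII:851642-851791, minus strand: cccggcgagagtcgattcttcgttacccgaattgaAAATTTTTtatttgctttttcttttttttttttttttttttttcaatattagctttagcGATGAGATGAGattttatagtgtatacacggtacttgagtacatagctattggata
UTP9, chrVIII:491731-491880, plus strand: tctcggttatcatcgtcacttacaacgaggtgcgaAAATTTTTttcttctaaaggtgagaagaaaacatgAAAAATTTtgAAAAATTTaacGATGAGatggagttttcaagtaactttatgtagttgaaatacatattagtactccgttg
UTP18, chrX:312757-312906, minus strand: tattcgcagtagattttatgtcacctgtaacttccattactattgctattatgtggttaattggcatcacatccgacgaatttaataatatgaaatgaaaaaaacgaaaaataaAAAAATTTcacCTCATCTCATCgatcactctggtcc
UTP22, chrVII:662158-662307, plus strand: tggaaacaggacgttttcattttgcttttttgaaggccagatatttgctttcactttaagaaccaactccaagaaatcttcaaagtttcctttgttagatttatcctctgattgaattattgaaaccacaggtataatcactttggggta
NOP7 carries 3 overlapping PAC matches between 2 RRPE matches, and KRR1 and HAS1 each carry 2 PAC matches downstream of 1 RRPE match. UTP9, which moved the other way in the deletion, carries 1 PAC and 3 RRPE matches. UTP18 carries 2 PAC matches on the opposite strand and 1 RRPE match. UTP22 was the only one of the 60 genes with neither element in the window. A match describes letters in a window and not a bound site.

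Over the 60 genes most matches lay in one part of the window, and positions in the windows of other genes were not compared. The first base of the 89 PAC matches lay at a median of 119 bases before the coding start, and 79 of them fell between 50 and 200 bases before it. The 81 RRPE matches had a median of 141 bases, with 72 of them in that interval. In 44 of the 49 genes with both elements upstream, RRPE lay farther from the coding start than the nearest PAC.

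**Figure D1:**
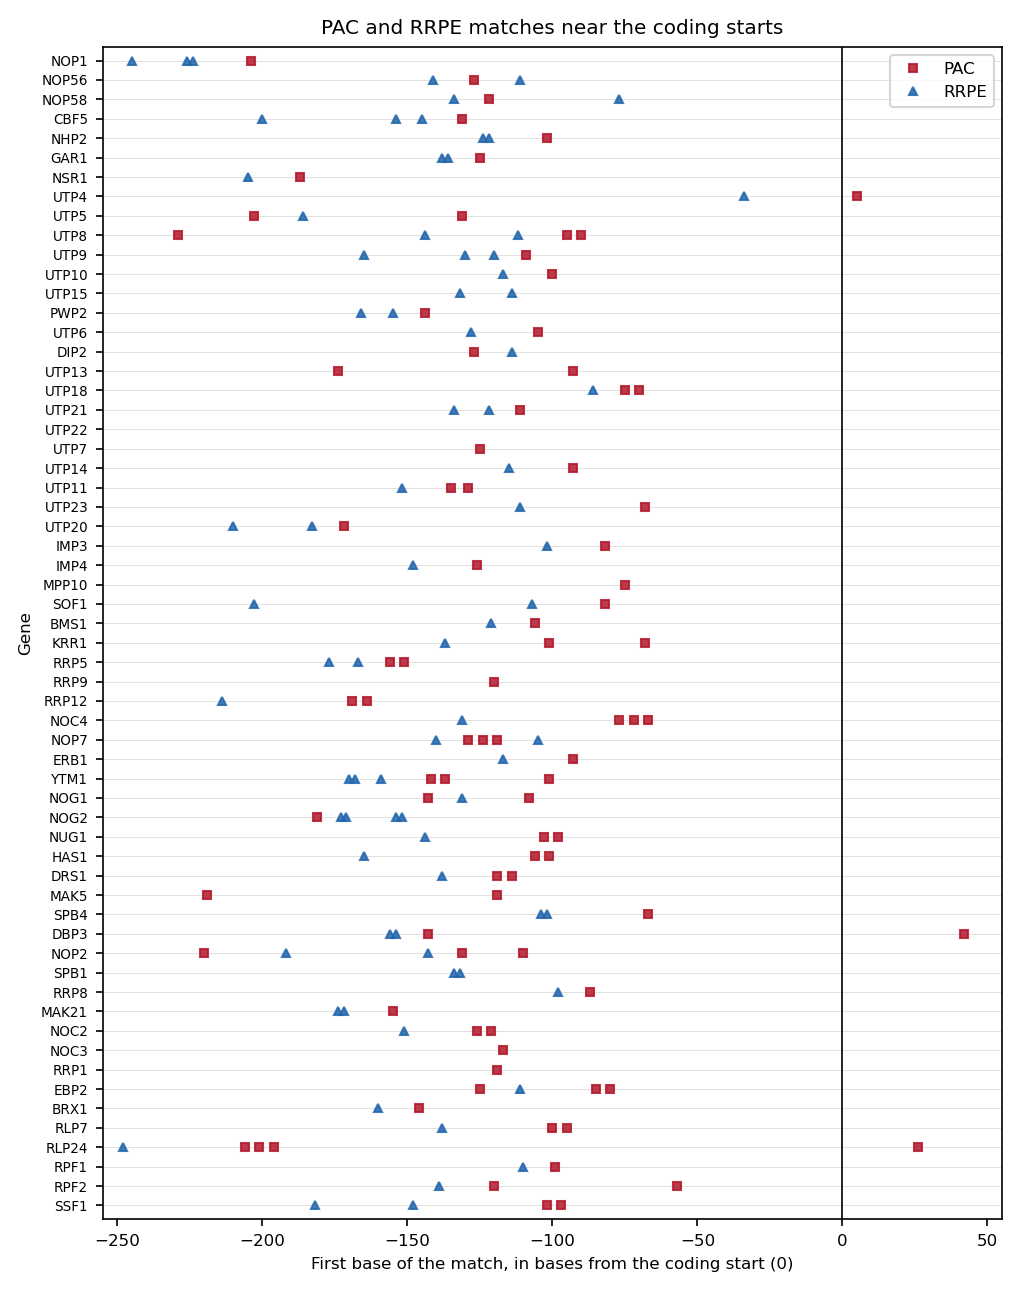
PAC (red squares) and RRPE (blue triangles) matches in the 60 genes, one gene per line, by the distance in bases of the first base of the match from the coding start at 0. Most matches lie between 50 and 200 bases before the start, with RRPE mostly upstream of PAC, and UTP22 has none.

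Hairpins of the type that Smaug proteins bind were rare in these coding sequences, as in annotated nuclear coding sequences at large. The search, on the coding strand, took a stem of 5 Watson-Crick pairs whose loop began with C-N-G-G and held 0 to 3 further bases. It matched 3 of the 60 genes (5.0%), against 422 of 5903 annotated nuclear coding sequences (7.15%), or 0.0259 against 0.0514 hairpins per kb. Stems with G-U or mismatched pairs, and hairpins in UTRs, were not searched. The 3 hairpins are printed in R64 coordinates, with the C-N-G-G of the loop in capitals.
RRP5, chrXIII:729033-729048, minus strand: tgttcCAGGcagaaca
NOP2, chrXIV:511643-511659, plus strand: aaacaCAGGttgtgttt
NOC3, chrXII:156177-156190, minus strand: tcatcCTGGgatga
RRP5 and NOP2 were lower in the deletion and did not pass the test in the inductants against naive. NOC3 passed neither test against naive.

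The libraries held 18431474 to 27501966 estimated counts, of which the 60 genes took 1.07% to 1.29%. VTS1 had 0 and 2 counts in the deletion libraries and 472 to 794 in the other 6, as their labels say. All 60 genes passed the filter on low counts, with 324 counts (IMP3) or more in every library, so counting error was below the common biological coefficient of variation of 0.0956. NOP56, NOP58, NSR1, RRP9, EBP2 and SSF1 had fractional counts in at least 1 library, which marks reads shared with another sequence. NOG2 has an intron that holds an annotated noncoding RNA gene, and its counts are over the coding sequence. The share of counts from mitochondrial genes was 1.14% and 1.19% in the deletion, against 0.621% to 0.733% in the other 6 libraries. With mitochondrial, Ty and 2-micron rows left out before scaling, 25 of the 60 genes were called lower and 8 higher in the deletion against naive (25 and 7 with them in). In bulk RNA, fewer cells that make a transcript and less of it per cell cannot be told apart.

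The 2 naive libraries differed from each other across the whole module, which bears on every comparison with them. All 60 genes were higher in naive replicate 1 than in naive replicate 2, by a median log2 difference of 0.26 and a range of 0.02 (HAS1) to 0.75 (IMP4), while 47.8% of all genes tested were higher in replicate 1. In inductant 2, 58 of 60 were higher in replicate 1, with a median of 0.19. In the deletion 50 of 60 were higher in replicate 1, but by a median of 0.05, and in inductant 1 only 25 of 60 were, with a median of -0.01. The comparisons with naive share these 2 libraries, so a low or high value there enters all of them.

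**Figure D2:**
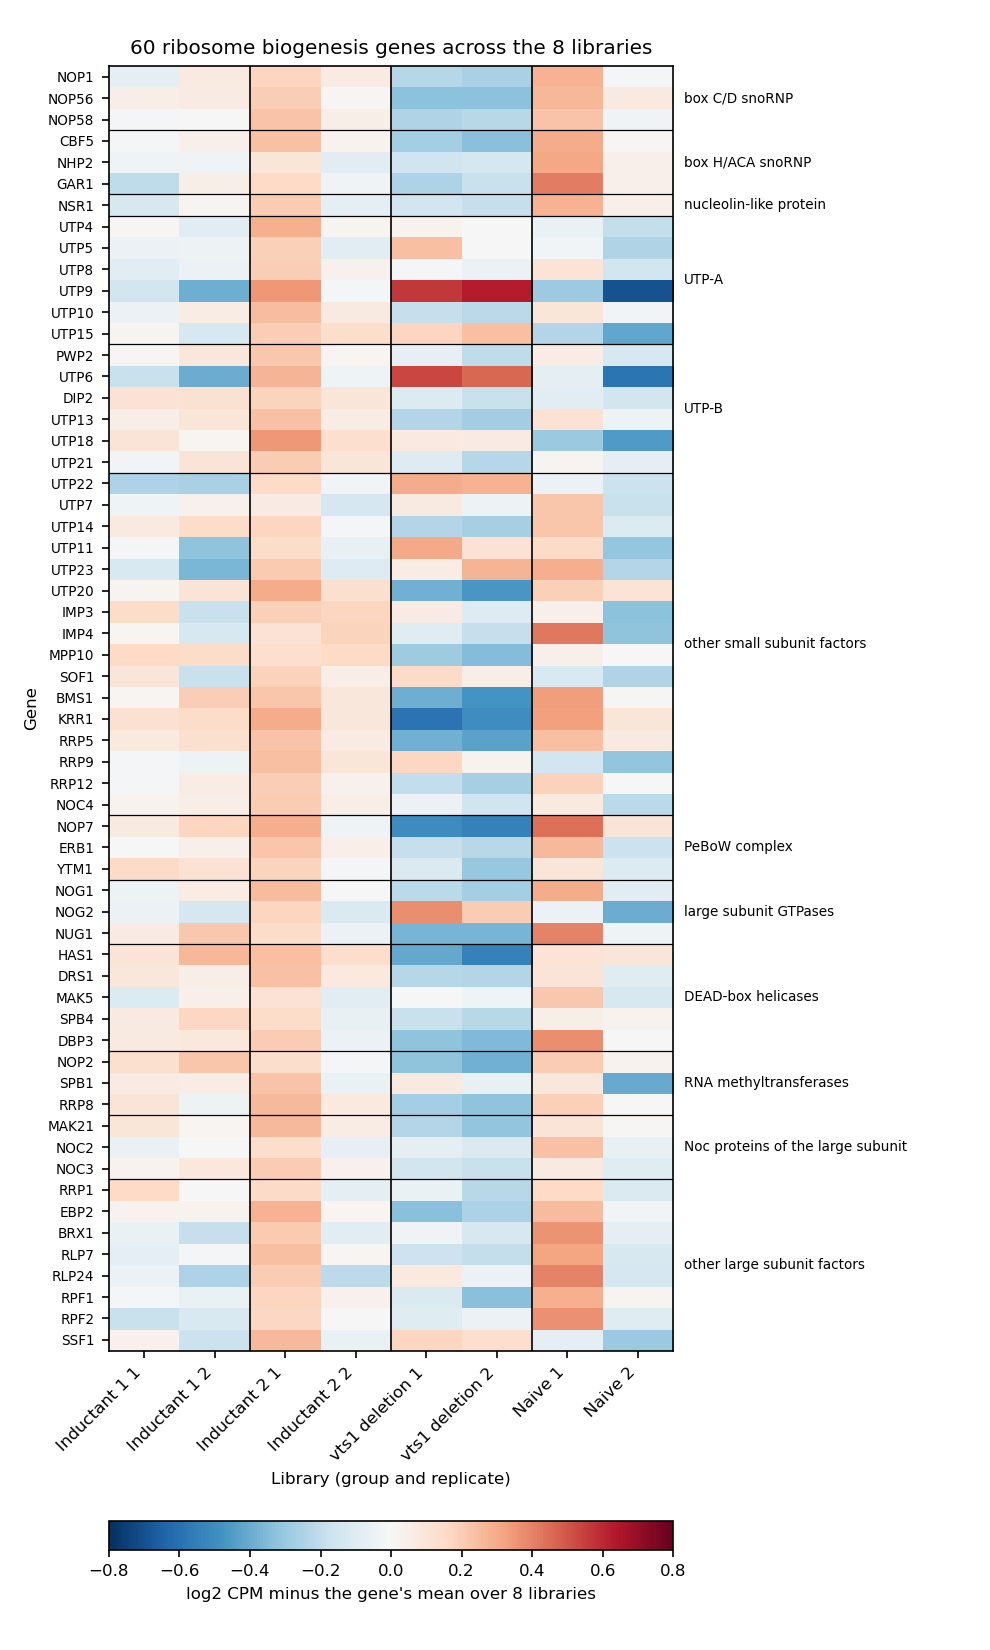
Log2 CPM (TMM-scaled) of each gene minus its mean over the 8 libraries, with genes as rows grouped by role and libraries as columns. The deletion columns are blue for most genes but red for UTP9, UTP6, UTP22 and NOG2, naive replicate 1 is redder than naive replicate 2 in every row, and inductant 2 replicate 1 is redder than its partner in nearly every row.

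Per length the genes spanned a wide range. Mean TPM (the deposited measure per coding length) over the 8 libraries ran from 25.1 for UTP6 to 435 for NOP56. The 5 highest, at 344 TPM or more, were NOP56, NOP1, CBF5 and NHP2, which encode proteins of the box C/D and H/ACA particles, and the nucleolin-like NSR1. Of the other genes of these particles, NOP58 stood 6th and GAR1 10th (173 TPM). Neighbours in the order of mean TPM had overlapping ranges over the libraries, except NHP2 and NOP58 (259.6 TPM), whose ranges did not meet. The genes lower in the deletion had a median of 117 TPM (45.2 to 435), against 48.8 TPM (25.1 to 103) for those higher in the deletion and 56.2 TPM (35.7 to 214) for those that did not pass.

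**Figure D3:**
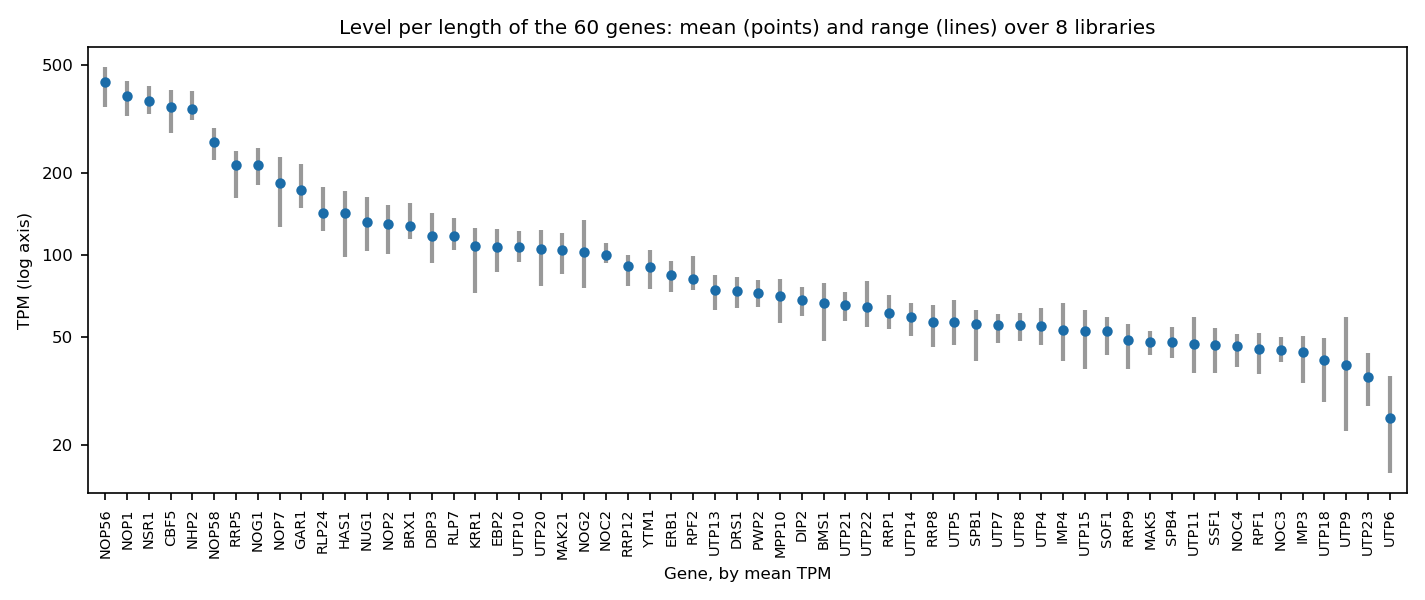
TPM of the 60 genes on a log axis, in order of their mean over the 8 libraries (points), with lines from the lowest to the highest library. NSR1 and the snoRNP genes other than GAR1 (10th) stand first at the left, at 344 TPM or more for the first 5. UTP6 stands at the right, at 25.1 TPM, and lines are long for NOP7, KRR1, HAS1, UTP9 and UTP6.

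In the vts1 deletion the module moved in both directions, mostly downward. Of the 60 genes, 25 fell and 7 rose against naive by edgeR's quasi-likelihood test at an adjusted p under 0.05, where 26.3% of all 6230 genes tested were called (14.6% fell and 11.7% rose). The share that fell was thus above the background, and the share that rose was near it. The median log2 fold change was -0.24, from -0.80 (NOP7) to 1.08 (UTP9), against 0.00 over all genes tested. In 34 genes both deletion libraries lay below both naive libraries and in 11 above, where 32.0% and 32.4% of all genes tested did so. The count depended on single libraries. Without naive replicate 1, 14 fell and 12 rose (median -0.07), and without naive replicate 2, 34 fell and 5 rose (median -0.36). With only 1 deletion library, fewer genes were called among the 60 and also over all genes tested. The median of the 60 was then -0.27 without deletion replicate 1 and -0.21 without deletion replicate 2. NOP56, UTP20, BMS1, KRR1, RRP5, NOP7, HAS1 and NOP2 fell, and UTP9, UTP15, UTP18 and UTP22 rose, whichever library was left out and under every other setting tried. Each of the other 17 falls was lost without deletion replicate 2, and each of the other 3 rises, UTP6, RRP9 and NOG2, without deletion replicate 1. Under all 9 settings other than the left-out libraries, 12 of the 25 falls and the 7 rises were kept. On the TPM scale, with limma, 12 fell and 9 rose. That scale moved the median of all genes by 0.09, and 68.3% of its calls over all genes were higher, against 44.5% in the edgeR test. Upper-quartile scaling gave 19 lower and 7 higher, with 54.5% of calls over all genes higher.

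The inductants differed from naive in few of these genes. Of the 60 genes, 4 rose and 0 fell (9 had an unadjusted p under 0.05), where 8.57% of all genes tested were called (2.97% rose and 5.6% fell). The median was 0.01, from -0.24 (GAR1) to 0.52 (UTP18). All 4 that rose, UTP15, DIP2, UTP18 and RRP9, encode small subunit processome proteins. By role, 6 of the 60 genes were UTP-A, 6 UTP-B and 16 other small subunit factors. DESeq2 called 5 higher and 0 lower, and the fit to only the groups compared called 2 higher and 0 lower. With the second naive library left out, the median of the 60 genes fell to -0.093, beside -0.007 over all genes tested. With the first left out it rose to 0.14, beside -0.003 over all genes tested. The sign of this small median thus rests on which naive library is read. Inductant 1 alone had 1 gene higher and 0 lower against naive (4.4% of all genes tested were called, 1.2% higher and 3.19% lower), and inductant 2 alone 5 higher and 0 lower (9.04% of all, 3.24% higher and 5.79% lower). Between inductant 1 and inductant 2, edgeR called 0 of the 60 (0.449% of all genes tested, 0.401% higher and 0.0482% lower), with 6 at an unadjusted p under 0.05, and DESeq2 called 1. Inductant 1 was nevertheless the lower in 52 of the 60 fitted values, with a median of -0.12, and without inductant 2 replicate 1 that median was -0.0018.

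Set against the deletion, the inductants were higher in 28 genes and lower in 3, where 37.6% of all genes tested were called (18.7% higher and 19.0% lower). The median was 0.24, from -0.64 (UTP9) to 0.71 (KRR1), against -0.02 over all genes tested. In 36 genes all 4 inductant libraries lay above both deletion libraries and in 4 below, where 27.0% and 28.4% of all genes tested did so. Without deletion replicate 1, 15 were higher and 2 lower, and without deletion replicate 2, 11 and 2. NOP56, UTP13, UTP20, MPP10, BMS1, KRR1, RRP5, NOP7, HAS1, NOP2 and MAK21 stayed higher, and UTP9 and UTP22 lower, under every setting and with any library left out. Each of the other calls, UTP6 included, was lost without deletion replicate 2. This comparison uses the same deletion libraries as the one above and is not a separate measurement of them.

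**Figure D4:**
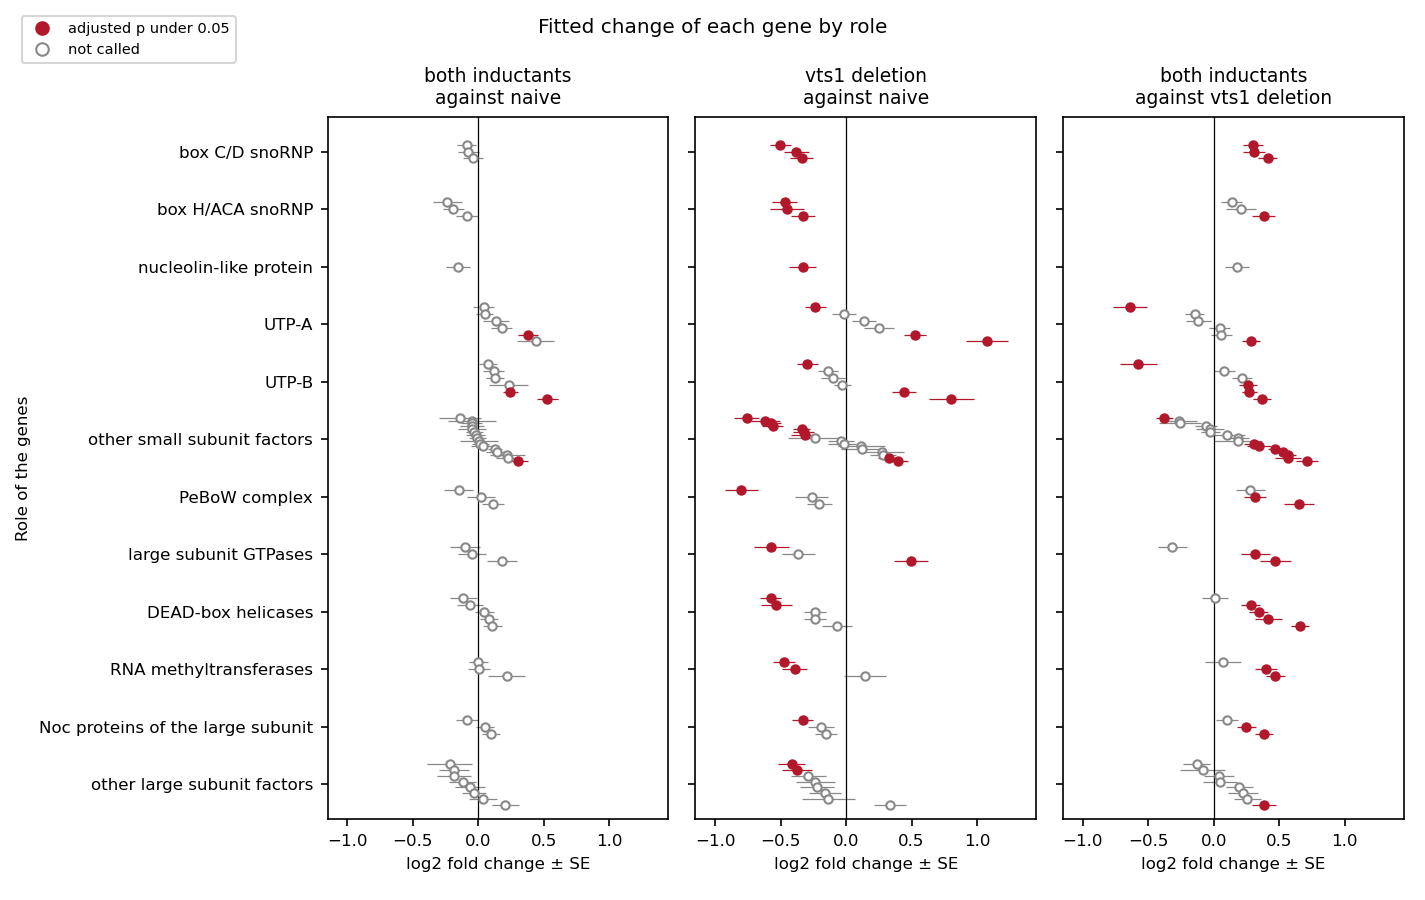
Fitted log2 fold change ± SE of each gene, by role (rows) and comparison (panels), with red points for an adjusted p under 0.05. The snoRNP rows lie below 0 in the deletion panel, the UTP-A and UTP-B rows hold points on both sides of 0, and the inductant panel has 4 red points, all above 0.

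The 6 snoRNP core genes among the 60 all fell in the deletion. Nop1 (the methyltransferase), Nop56 and Nop58 form, with Snu13, the core of the box C/D particles that guide ribose methylation, and Cbf5 (the pseudouridine synthase), Nhp2 and Gar1 form, with Nop10, that of the box H/ACA particles that guide pseudouridylation. All 3 box C/D genes and all 3 box H/ACA genes fell, with log2 fold changes from -0.50 (NOP56) to -0.33 (NHP2), and so did NSR1, the nucleolin-like gene (-0.33). NOP56 (YLR197W, chromosome XII, 546097 to 547611) had 636 and 640.3 TMM-scaled CPM in inductant 1, 701 and 618 CPM in inductant 2, 488 and 487 CPM in the deletion, and 736 and 645 CPM in naive. Both deletion libraries lay below the other 6, and the fall against naive was -0.50 ± 0.08 (SE, adjusted p = 0.00136). Of these 7 genes the fall in NOP1, NOP58, NHP2, GAR1 and NSR1 was lost without naive replicate 1 or without either deletion library (that in NSR1 also without either inductant 1 library), and that in CBF5 without deletion replicate 2 alone. Limma on TPM, with either pseudocount, did not keep the falls in NOP1, NOP58, NHP2, GAR1 and NSR1. Upper-quartile scaling did not keep those in NHP2, GAR1 and NSR1, nor did the fit to only the groups compared keep that in NHP2. Against naive none of the 7 passed in the inductants, where their values ran from -0.24 (GAR1) to -0.04 (NOP58). NOP56, NOP1, NOP58 and CBF5 were higher in the inductants than in the deletion, the first by 0.41 ± 0.07 (adjusted p = 0.00132).

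The remaining core genes, NOP10 and SNU13, are not among the 60 and were chosen after their values were seen. NOP10 had 13.1 and 11.99 CPM in inductant 1, 13.6 and 10.7 CPM in inductant 2, 14.0 and 15.9 CPM in the deletion, and 17.7 and 17.3 CPM in naive. All inductant and deletion libraries lay below both naive libraries. NOP10 fell in the inductants against naive (-0.50 ± 0.12, adjusted p = 0.0305), a call kept in 4 of 8 fits with 1 library left out, and did not pass in the deletion (-0.22 ± 0.14, adjusted p = 0.274). SNU13 passed neither in the inductants (-0.30 ± 0.09, adjusted p = 0.0713) nor in the deletion (-0.15 ± 0.11, adjusted p = 0.343). 
UTP-A and UTP-B, the subcomplexes that bind the nascent precursor first, held 4 of the 7 genes that rose in the deletion and 3 of the 4 that rose in the inductants. Of the 6 UTP-A genes, UTP9 and UTP15 rose and UTP10 fell (-0.23, a call kept in 3 of 8 fits with 1 library left out) in the deletion. UTP9 (YHR196W, chromosome VIII, 491931 to 493658) had 55.6 and 47.1 CPM in inductant 1, 78.4 and 61.0 CPM in inductant 2, 91.3 and 95.1 CPM in the deletion, and 50.3 and 38.1 CPM in naive. The deletion libraries were the 2 highest, and UTP9 rose by 1.08 ± 0.16 against naive (adjusted p = 0.0018), the largest change of the 60 genes in that comparison. The inductants were lower than the deletion (-0.64 ± 0.13, adjusted p = 0.00628). Inductant 2 alone passed against naive (0.66 ± 0.16, adjusted p = 0.039), a call lost in 6 of 8 fits with 1 library left out (all but those without inductant 2 replicate 2 or naive replicate 1), and inductant 1 did not (0.22 ± 0.16, adjusted p = 0.47). The difference between the inductants did not pass either (-0.45 ± 0.16, adjusted p = 0.24).

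UTP15 (YMR093W, chromosome XIII, 454015 to 455556), also of UTP-A, had 76.4 and 69.0 CPM in inductant 1, 86.4 and 83.3 CPM in inductant 2, 84.8 and 89.1 CPM in the deletion, and 64.2 and 56.6 CPM in naive. Both naive libraries lay below the other 6. UTP15 rose by 0.38 ± 0.08 in the inductants (adjusted p = 0.0113) and by 0.53 ± 0.09 in the deletion (adjusted p = 0.00136), and the inductants did not pass against the deletion (-0.15 ± 0.07, adjusted p = 0.139). The inductant call was lost without inductant 1 replicate 1 (adjusted p = 0.0558). The other UTP-A genes, UTP4, UTP5 and UTP8, passed none of the 3 tests.

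In UTP-B, UTP6 and UTP18 rose and UTP13 fell (-0.30, a call lost without naive replicate 1 or either deletion library) in the deletion. UTP18 (YJL069C, chromosome X, 310922 to 312706) had 74.1 and 69.6 CPM in inductant 1, 87.6 and 75.6 CPM in inductant 2, 72.7 and 72.2 CPM in the deletion, and 56.1 and 50.4 CPM in naive. As with UTP15, naive lay below the other 6 libraries. UTP18 rose by 0.52 ± 0.08 in the inductants (adjusted p = 0.00266) and by 0.44 ± 0.09 in the deletion (adjusted p = 0.00512), with 0.08 ± 0.08 between them (adjusted p = 0.453). It was the only one of the 60 genes to pass in inductant 1 alone (0.43 ± 0.09, adjusted p = 0.0265), a call lost without either inductant 1 library or either deletion library, and in inductant 2 it rose by 0.62 ± 0.09 (adjusted p = 0.00181).

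DIP2 (YLR129W, chromosome XII, 399657 to 402488), also in UTP-B, had 207 and 208 CPM in inductant 1, 216 and 204 CPM in inductant 2, 177 and 169 CPM in the deletion, and 180.1 and 173 CPM in naive. Here the inductants stood above both other groups, which overlapped each other. DIP2 rose by 0.24 ± 0.06 in the inductants against naive (adjusted p = 0.028), a call lost in 6 of 8 fits with 1 library left out (all but those without a naive library), and was 0.27 ± 0.06 above the deletion (adjusted p = 0.00438). UTP6 rose by 0.81 ± 0.17 in the deletion (adjusted p = 0.00768), at 42.6 and 40.4 CPM against 28.0 and 19.6 CPM in naive, and did not pass without deletion replicate 1. UTP13 (YLR222C), a WD-repeat protein of the same subcomplex, had 186 and 192 CPM in inductant 1, 211 and 187 CPM in inductant 2, 152 and 148 CPM in the deletion, and 194 and 175 CPM in naive. Both deletion libraries were below the other 6, and the inductants were 0.37 ± 0.07 above the deletion (adjusted p = 0.00229). UTP21 passed only in the inductants against the deletion (0.26), and PWP2 passed none of the 3 tests.

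**Figure D5:**
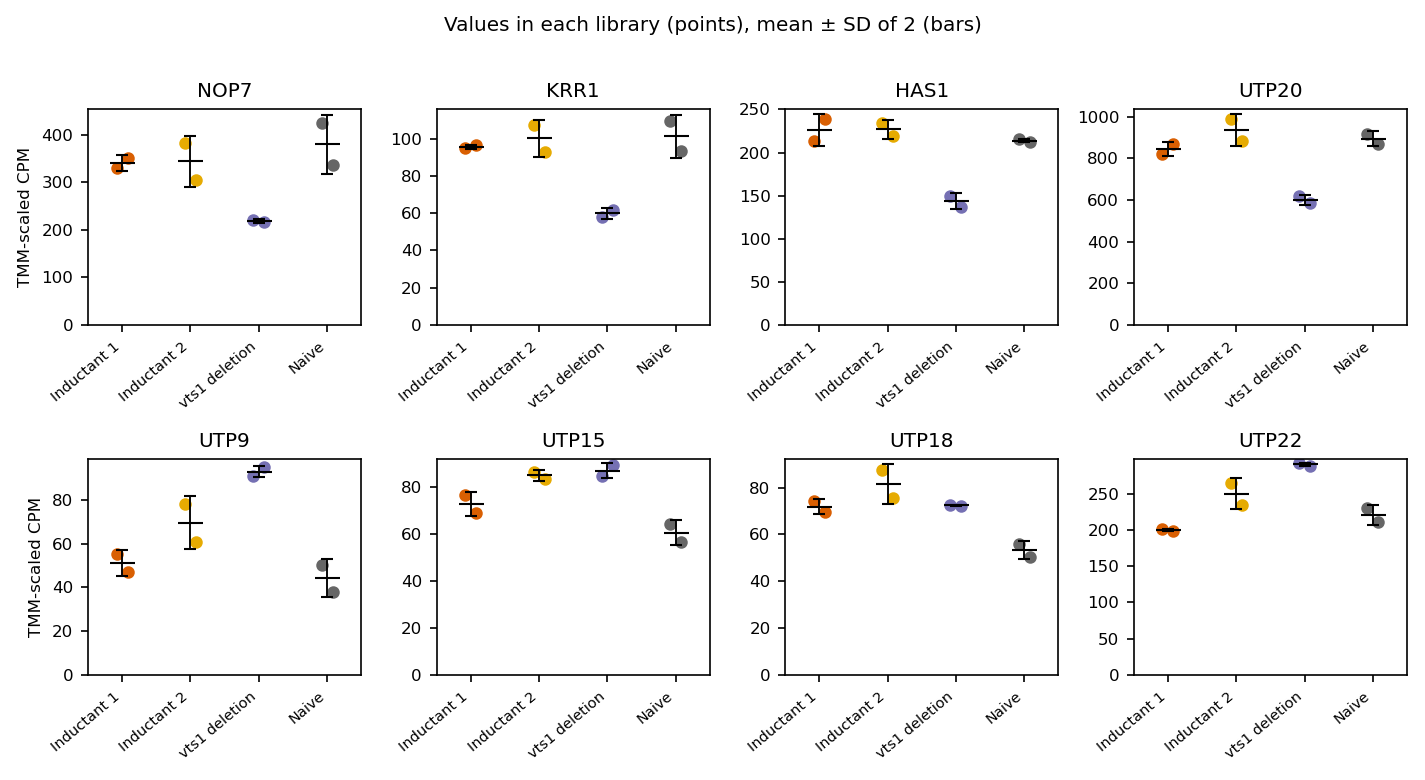
CPM (TMM-scaled) of 8 genes in each library (points), with the mean ± SD of the 2 replicates, by group. NOP7, KRR1, HAS1 and UTP20 are lowest in the deletion, UTP9 and UTP22 highest there, and UTP15 and UTP18 lowest in naive.

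Of the other 16 small subunit factors, 7 were lower and 2 higher in the deletion, against 2 lower and 4 higher of the 12 genes of UTP-A and UTP-B, a difference that was not tested. KRR1 (YCL059C, chromosome III, 22429 to 23379), a KH-domain protein of the processome, had 94.8 and 96.4 CPM in inductant 1, 107 and 92.9 CPM in inductant 2, 57.8 and 61.8 CPM in the deletion, and 109 and 93.1 CPM in naive. The deletion stood apart from the other 3 groups, which overlapped. KRR1 fell by 0.76 ± 0.10 on the log2 scale against naive (adjusted p = 0.000287), and the inductants were 0.71 ± 0.08 above the deletion (adjusted p = 0.000123).

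UTP20 and RRP5, which encode large proteins of the processome, and BMS1, its GTPase, showed the same order. UTP20 (YBL004W, chromosome II, 227636 to 235117) had 821 and 867 CPM in inductant 1, 991 and 881 CPM in inductant 2, 617 and 585 CPM in the deletion, and 919 and 871 CPM in naive. RRP5 (YMR229C), whose product works in both subunit pathways, had 1192 and 1235 CPM in inductant 1, 1324 and 1181 CPM in inductant 2, 865 and 841 CPM in the deletion, and 1332 and 1185 CPM in naive. BMS1 (YPL217C) had 239 and 271 CPM in inductant 1, 276 and 251 CPM in inductant 2, 180.0 and 169.7 CPM in the deletion, and 299 and 238 CPM in naive. In all 3 genes the deletion libraries were the 2 lowest and the inductants overlapped naive. Against naive UTP20 changed by -0.57 ± 0.07 (adjusted p = 0.000347), RRP5 by -0.56 ± 0.08 (adjusted p = 0.000542) and BMS1 by -0.62 ± 0.11 (adjusted p = 0.00296) in the deletion. The inductants exceeded the deletion by 0.56 ± 0.07, 0.53 ± 0.07 and 0.57 ± 0.10 in the 3 genes, in that order, and these differences passed (adjusted p = 0.000106, 0.0002 and 0.00162).

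MPP10 (YJR002W), the scaffold of the Mpp10-Imp3-Imp4 complex, had 133 and 133 CPM in inductant 1, 131 and 134 CPM in inductant 2, 98.0 and 93.9 CPM in the deletion, and 123 and 119.9 CPM in naive. The 3 groups of libraries (inductants, naive, deletion) did not overlap, with naive between the other 2. MPP10 fell by 0.34 ± 0.06 on the log2 scale in the deletion against naive (adjusted p = 0.00307), a call lost without deletion replicate 2 (adjusted p = 0.0575), and was 0.47 ± 0.06 higher in the inductants than in the deletion (adjusted p = 0.00013). Against naive the inductants did not pass (0.13 ± 0.06, adjusted p = 0.166). Its partners IMP3 and IMP4 passed none of the 3 tests.

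UTP22 and RRP9 rose in the deletion. UTP22 (YGR090W, chromosome VII, 662358 to 666071), a factor that also acts with Rrp7 and casein kinase, had 201 and 199.7 CPM in inductant 1, 266 and 235 CPM in inductant 2, 293 and 289.7 CPM in the deletion, and 231 and 212 CPM in naive. The deletion was highest, naive lay between the 2 inductants, and UTP22 rose by 0.39 ± 0.08 against naive (adjusted p = 0.00353). The inductants were 0.38 below the deletion on the log2 scale (-0.38 ± 0.07, adjusted p = 0.00122), and inductant 1 was below inductant 2 without passing (-0.32 ± 0.08, adjusted p = 0.0926). RRP9 (YPR137W), the U3 snoRNA-binding WD-repeat protein, had 78.4 and 77.2 CPM in inductant 1, 93.8 and 84.7 CPM in inductant 2, 89.0 and 80.8 CPM in the deletion, and 71.5 and 63.8 CPM in naive. Naive was again the lowest group, with RRP9 higher by 0.30 ± 0.08 in the inductants (adjusted p = 0.0333) and by 0.33 ± 0.09 in the deletion (adjusted p = 0.0177). The first of these calls was lost in 6 of 8 fits with 1 library left out (all but those without inductant 2 replicate 2 or naive replicate 1), and the second without naive replicate 2 or deletion replicate 1. UTP14 fell in the deletion (-0.31, adjusted p = 0.048), a call kept in only 1 of 8 fits with 1 library left out and in 4 of 9 other settings. RRP12 fell too (-0.32), a call lost without either deletion library, and UTP7, UTP11, UTP23, SOF1 and NOC4 passed none of the 3 tests.

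Of the large subunit genes, NOP7 changed most in the deletion. NOP7 (YGR103W, chromosome VII, 695417 to 697234) encodes the BRCT-domain member of the PeBoW complex, with Erb1 and Ytm1. It had 329 and 352 CPM in inductant 1, 382 and 306 CPM in inductant 2, 221 and 215 CPM in the deletion, and 424 and 336 CPM in naive. The deletion lay below all other libraries, while the inductants overlapped naive, whose 2 libraries were far apart. NOP7 fell by 0.80 ± 0.13 on the log2 scale against naive (adjusted p = 0.00235), and the inductants were 0.65 ± 0.11 above the deletion (adjusted p = 0.00249). Against naive the inductants gave -0.15 ± 0.11 (adjusted p = 0.414), and 0.02 without naive replicate 1. ERB1 and YTM1 did not pass in the deletion against naive (-0.26 and -0.20), and YTM1 but not ERB1 passed in the inductants against the deletion (0.31).

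Among the 5 DEAD-box helicases, HAS1 and DBP3 fell in the deletion (the call for DBP3 was lost without either deletion library) and none rose. HAS1 (YMR290C, chromosome XIII, 850074 to 851591), a helicase of both subunit pathways, had 213 and 239 CPM in inductant 1, 235 and 219 CPM in inductant 2, 150.1 and 137 CPM in the deletion, and 215 and 213 CPM in naive. The deletion was the lowest group, and on the log2 scale the naive pair was the closest of any of the 60 genes. HAS1 fell by 0.58 ± 0.08 on the log2 scale against naive (adjusted p = 0.000517), and the inductants were 0.66 ± 0.07 above the deletion (adjusted p = 5.86e-05), the smallest adjusted p of the 60 in that comparison. HAS1, DRS1, SPB4 and DBP3 were higher in the inductants than in the deletion, and MAK5 was not (0.01).

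NOP2, the methyltransferase that modifies large subunit rRNA, had 250.1 and 267 CPM in inductant 1, 252 and 227 CPM in inductant 2, 183 and 176 CPM in the deletion, and 264 and 234 CPM in naive. Both deletion libraries lay below the other 6. NOP2 (YNL061W, chromosome XIV, 510540 to 512396) fell by 0.47 ± 0.08 on the log2 scale in the deletion (adjusted p = 0.00205) and did not pass between inductants and naive (adjusted p = 0.998). RRP8, another rRNA methyltransferase gene, fell in the deletion as well (-0.39), a call lost without naive replicate 1 or either deletion library, and SPB1 did not pass (0.15). MAK21 (YDR060W), which pairs with Noc2, had 342 and 323 CPM in inductant 1, 383 and 334 CPM in inductant 2, 272 and 257 CPM in the deletion, and 343 and 322 CPM in naive. The deletion was lowest again, and the inductants were 0.38 ± 0.07 above it (adjusted p = 0.00176). MAK21 also fell in the deletion against naive (-0.33), a call lost without either deletion library and with limma on TPM. NOC2 and NOC3 did not pass against naive in either comparison.

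The GTPases of the large subunit went apart. NUG1 fell in the deletion (-0.57 ± 0.13, adjusted p = 0.0145), a call lost without either deletion library. NOG2, needed late in nuclear maturation, rose (0.50 ± 0.13, adjusted p = 0.0225), a call lost without naive replicate 2 or deletion replicate 1. NOG1 did not pass (-0.37 ± 0.13). NOG2 was the only large subunit gene of the 60 that rose, at 179 and 159 CPM in the deletion against 134 and 105 CPM in naive. Of the 8 other large subunit factors EBP2 (-0.42) and RPF1 (-0.37) fell, calls lost without naive replicate 1 or either deletion library (for RPF1 also without either inductant 1 library), and RRP1, BRX1, RLP7, RLP24, RPF2 and SSF1 did not pass.

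Other genes of the pathway, from lists of further factors, showed calls in both directions as well. Of 44 other small subunit factors, 13 fell and 7 rose in the deletion, with KRE33, the rRNA acetyltransferase gene, at -0.69 ± 0.07 (adjusted p = 0.000102). Of 53 other factors, listed as large subunit factors but with NOP10 among them, 11 fell and 5 rose, with REA1, the dynein-like remodelling ATPase gene also called MDN1, at -0.64 ± 0.08 (adjusted p = 0.000298). Of 16 genes of RNA polymerase I and its factors, 3 fell and 4 rose: the 2 largest subunits fell, RPA190 by 0.70 ± 0.07 and RPA135 by 0.75 ± 0.08 on the log2 scale (adjusted p = 9.12e-05 each), while the initiation factor genes RRN11 (0.88 ± 0.12) and RRN3 (0.72 ± 0.11) rose. These shares stand beside the 14.6% of all genes tested that fell and the 11.7% that rose in the deletion. In the inductants against naive the same lists had 1 higher and 0 lower, 2 higher and 1 lower (NOP10), and 3 higher and 0 lower.

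Genes known to regulate this module were read from a list of 15. In the deletion 5 of them rose and 0 fell, beside 11.7% and 14.6% of all genes tested. Among those that rose were TOR2 (0.31 ± 0.07, adjusted p = 0.00642) and FHL1 (0.39 ± 0.09, adjusted p = 0.00946). ABF1 (0.42 ± 0.10, adjusted p = 0.0103) and SFP1, an activator of ribosome synthesis genes (0.28 ± 0.07, adjusted p = 0.0148), rose too. In the inductants against naive 1 of the 15 rose and 2 fell, beside 2.97% and 5.6% of all genes tested. DOT6, which encodes a repressor that binds PAC, fell (-0.51 ± 0.08, adjusted p = 0.00227). STB3, which encodes an RRPE-binding protein, fell (-0.25 ± 0.07, adjusted p = 0.0431), and IFH1, a coactivator of ribosomal protein genes, rose (0.30 ± 0.06, adjusted p = 0.00838). DOT6 averaged 237 CPM in the inductants, 361 CPM in the deletion and 337 CPM in naive, and was lower in the inductants than in the deletion too (-0.61 ± 0.08, adjusted p = 0.000159). The ribosomal protein genes, the products around which the 60 factors work, include many near-identical pairs whose reads the counting can split. Of 129 tested, 55 fell in inductant 1 against naive (median log2 fold change -0.30, beside 3.19% of all genes tested that fell) and 0 in inductant 2 (median -0.08, beside 5.79%), where 8 had an unadjusted p under 0.05 and DESeq2 also called 0. The count in inductant 1 depended on the method: DESeq2 called 98 lower, the fit to only the groups compared 8, and limma on TPM 0 with either pseudocount. In inductant 2 limma called 1 lower with either pseudocount. Inductant 1 was below inductant 2 in 128 of the 129 fitted values (median -0.23), of which edgeR called 0, with 103 at an unadjusted p under 0.05, and DESeq2 called 28. With 1 library left out, edgeR called 0 to 111 lower in inductant 1 against naive (111 without naive replicate 2, 0 without either inductant 1 library), 0 to 23 in inductant 2 against naive (23 without naive replicate 2) and 0 to 57 between the inductants (55 and 57 without naive replicate 1 and 2). Over both inductants 22 fell and 0 rose against naive (5.6% and 2.97% of all genes tested), with 3 to 85 lower when 1 library was left out, both extremes without a naive library. In the deletion 11 fell and 7 rose, beside 14.6% and 11.7% of all genes tested, with a median of -0.05. The direction depended on the setting. DESeq2 called 11 lower and 8 higher, upper-quartile scaling 5 and 9, and limma on TPM 5 and 14 with either pseudocount. Dropping the first naive library moved the median to 0.03, and dropping the second moved it to -0.11. With either deletion library dropped the median stayed below 0 (-0.06 and -0.03).

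Genes outside the 60 with both PAC and RRPE in their window numbered 288, of which 283 were tested. The 288 included 33 of the 44 other small subunit factors, 38 of the 53 listed as large subunit factors and 6 of the 16 RNA polymerase I genes. Calls in those genes are counted in the lists above too, and shares without them were not computed. In the deletion 57 of the 283 fell (20.1%, beside 14.6% of all genes tested) and 39 rose (13.8%, beside 11.7%), with a median log2 fold change of -0.03. In the inductants against naive 6 fell (2.12%, beside 5.6%) and 13 rose (4.59%, beside 2.97%), with a median of 0.03.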

How the data were processed

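The samples are 8 RNA-seq libraries, grouped and numbered by their titles. The authors used kallisto and build R64, according to the submitters' processing notes. Its version, the read layout and the strand setting were not given in the sources used here. Per the file headers, each deposited file lists an estimated count and a TPM per open reading frame. Lengths divided by 3 without remainder in 99.97% of rows, which marks coding length only, so reads from UTRs were not counted.

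The 60 genes were matched by systematic name. Symbols and coordinates came from RefSeq's annotation of R64, which named all 60 and 6026 of the rows. The members, their 12 roles, the lists and the tests were chosen with earlier results of these data known. After rounding of the estimated counts to integers, edgeR 4.0.16 (R 4.3.3) was run on all 8 libraries at once, with TMM factors between 0.946 and 1.093. The filter filterByExpr kept 6230 genes. The model had 1 mean per group, robust quasi-likelihood dispersion and 4 residual degrees of freedom. P-values are two-sided with Benjamini-Hochberg adjustment over all genes tested in a comparison, and a call means an adjusted p under 0.05. Every adjusted p in the text comes from this test unless another is named. CPM is scaled with TMM, and each ± beside a log2 fold change is its standard error.

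Values in every library are given for NOP7 and, in each of 3 comparisons, for at most 12 called genes with the smallest adjusted p. UTP6 and NOG2 (deletion and naive values), NOP10 (every library) and SNU13 (fitted changes only) were added after their values were seen. From each other list at most 4 called genes are named. Alternatives were DESeq2 1.42.0, RLE and upper-quartile scaling, no filter, limma 3.58.1 on log2(TPM + 1) and log2(TPM + 0.1), a replicate block, only the groups compared, no mitochondrial, Ty or 2-micron rows, and each library left out in turn. Promoters and hairpins were read from the R64 genome.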

Additional observations from a re-analysis of the deposited data

How the results depend on the processing

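Counts of the 60 genes called were most sensitive to single libraries. Calls over all genes tested changed with the library left out as well. With 1 library left out, 1 to 11 genes were called in both inductants against naive (4 with all libraries), 14 to 39 in the deletion against naive (32), 13 to 39 in the inductants against the deletion (31), 0 to 11 in inductant 1 against naive (1), 1 to 11 in inductant 2 against naive (5) and 0 to 1 between the inductants (0). The median log2 fold change ran from -0.093 to 0.14 in both inductants against naive, -0.36 to -0.067 in the deletion against naive, -0.16 to 0.10 in inductant 1 against naive and -0.076 to 0.17 in inductant 2 against naive. Of the values recomputed in the check of named values (below), only that of NOP7 in both inductants against naive changed sign. It stood at 0.021 with the first naive library dropped, and at -0.31 with the second dropped. Not all values given in the text were in that check. In the deletion against naive limma called 21 genes with either pseudocount. For inductant 1 against naive DESeq2 called 2, and limma (both pseudocounts) and the fit to only the groups compared 0. For inductant 2 against naive limma called 3 with either pseudocount and the fit to only the groups compared 2, and for both inductants against naive that fit called 2. DESeq2 called 1 gene between the inductants. Deviations of same-numbered libraries correlated by -0.11 to 0.11 over all genes and by -0.12 to 0.27 over the 60 genes, not above 0.1 in every pair of groups, and the labels give no shared day or batch, so the numbers were not taken to pair the libraries. The fit with a replicate block called 8 genes in inductant 2 against naive and 1 between the inductants, with 5, 37 and 36 in the first 3 comparisons. The cause of these shifts was not tested. The check of named values took mostly the strongest calls of these same data, so its tally does not stand for the other genes. In it 476 values kept their direction and side of the threshold, 16 fell short of the threshold and 1 changed sign. Each of the 60 genes had 324 counts or more in every library, and fits with smaller depth were not run.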
